A study of Mus musculus with 9 samples.

Results

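Cultured mouse sensory neurons of the dorsal root ganglion (DRG), the cluster of nerve cells beside the spinal cord that carry touch, heat, pain and itch, were compared with cultured cortical astrocytes, the support cells of the brain that clear glutamate and potassium from around neurons. The comparison took every library of these groups, 3 labelled DRG and 3 labelled Astrocytes, of 9 in the series. The other 3, oligodendrocyte precursor cells (OPC), entered the estimate of spread, the filter on low counts and the scaling of the libraries. Astrocytes came from the cortex of pups of either sex at postnatal day 1 to 3 and grew for about 21 days until confluent. DRG neurons came from embryos at E13.5 (embryonic day) and grew for about 2 weeks. All libraries were poly(A)-selected and stranded, from purified primary cultures with no treatment, strain or genotype named in the labels. Donor age, tissue and time in culture changed together with cell type, so they cannot be told apart from it in any result here. The labels call the replicates biological but do not say which shared a litter, so p-values measure the spread between these cultures.

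Neurons and astrocytes divide the work of nervous tissue between them. A sensory neuron keeps up an axon many times longer than its cell body, with motor proteins that carry vesicles and mitochondria along microtubules, ion channels that fire action potentials, and large dense core vesicles that release peptides. An astrocyte takes up transmitter and potassium through membrane transporters, makes glutamine, lipoproteins and serine for its neighbours, builds extracellular matrix, and can divide in culture.

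Levels are in CPM, the read count of a gene relative to all assigned reads of its library, given as mean ± SD over the 3 libraries of a group, the DRG neurons first. A gene is called higher or lower in DRG neurons where its adjusted p in edgeR's quasi-likelihood test was under 0.05; every fold change is the log2 ratio of DRG neurons to astrocytes, so negative values are lower in DRG neurons. CPM depends on transcript length, so values in CPM compare groups and not genes. Fitted fold changes with their SE are given only for genes whose fold moved by less than 1.5 times, and whose call held, when any 1 library was left out; other genes are given as levels. A gene with reads in only 1 group passes the filter on low counts by differing, so the counts of list members describe the lists and test nothing. Of the genes named below Atf4, Atp6v0a1, Ddit3, Dnm2, Egfr, Eya1, Fgfr2, Hspa5, Itpr2, Kcnd3, Ldha, Mapt, Meg3, Msi2, Ntrk2, Qk and Sort1 have more than 1 RefSeq accession, so their counts cover isoform-specific reads only. RNA of bulk cultures was measured, in which fewer cells of a type and less RNA per cell cannot be told apart.

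Of 24170 genes in the counts, 14848 had enough reads to be tested. In DRG neurons 4075 were higher, 27.4% of those tested, and 4863 were lower, 32.8%, so 8938 or 60.2% were called in one direction. In 8685 of the called genes (97.2%) the 3 DRG libraries did not overlap the 3 astrocyte libraries. At least 4-fold differences were fitted for 2081 higher and 2827 lower genes. The interval of the fold change lay within 2-fold for 2515 genes (16.9%), by limma voom at 95%. The median log2 fold change over all tested genes was −0.13, and these shares are the background for each list below. Scaling by library size alone moved that median by −0.26, removing a trend with transcript length moved it by 0.13, and leaving out Astrocytes replicate 1 and OPC replicate 3 together moved it by 0.13.

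Astrocytes replicate 1 stood apart from the other astrocyte libraries. Correlations of log2 CPM across genes ran from 0.930 to 0.984 among astrocytes and from 0.966 to 0.985 among DRG neurons. Without this library 3679 of the 4075 higher genes (90.3%) and 4442 of the 4863 lower genes (91.3%) had the same call; 394 and 404 were no longer called and 0 changed direction. Genes that departed in it by the rule for naming fell in recognizable groups. Mfap4, a microfibril protein, was at 2.05, 279.7 and 221 CPM in Astrocytes replicates 1 to 3 and 2.47, 1.35 and 1.06 CPM in DRG replicates 1 to 3. Lower in this astrocyte library were also the matrix genes Col1a1 (1.02 CPM, against 128 and 90.8 in the other astrocytes), Col3a1, Eln and Itgbl1. Higher in it were Siglec1, a macrophage receptor (134 CPM, against 3.63 and 6.80), the cilia genes Ccdc153 and Cfap161, and Hpgd, which breaks down prostaglandins. Of the departing genes, Hpgd lost its call without this library (adjusted p = 0.213) and also without DRG replicate 2 or 3, while Col3a1 did not pass with it and passed without it (adjusted p = 0.0578 with it, 0.00356 without, higher in DRG neurons).

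Markers checked the labels and showed which other cells moved with them. Sensory and pan-neuronal markers summed to 13.4, 41.1 and 22.7 CPM in Astrocytes replicates 1 to 3 and 25559.9, 18909 and 20660.3 CPM in DRG replicates 1 to 3. Astrocyte markers summed to 8569, 6747 and 7825 CPM in Astrocytes replicates 1 to 3 and 671, 796 and 312 CPM in DRG replicates 1 to 3. Of 10 tested astrocyte markers 9 were lower in DRG neurons and 1 did not pass. The sums do not show which members carried the level in DRG neurons. Both lists separated the groups as labelled. Microglia and macrophage markers summed to 2879, 498 and 464 CPM in Astrocytes replicates 1 to 3 and 19.4, 11.8 and 9.94 CPM in DRG replicates 1 to 3, and 11 of 11 tested were lower in DRG neurons. They were high in Astrocytes replicate 1, as were motile cilia markers, which summed to 1988, 271 and 716 CPM in Astrocytes replicates 1 to 3 and 55.1, 78.3 and 57.8 CPM in DRG replicates 1 to 3. Fibroblast and mural markers were low in the same library and summed to 1155, 8261 and 9748 CPM in Astrocytes replicates 1 to 3 and 546, 250.02 and 502 CPM in DRG replicates 1 to 3. The contractile genes Acta2 and Tagln made up most of that astrocyte sum; the other 10 markers summed to 14.6, 330.2 and 242 CPM in Astrocytes replicates 1 to 3 and 405, 234 and 438 CPM in DRG replicates 1 to 3, and 4 of 9 tested were higher in DRG neurons and 1 lower (2 to 4 higher when any 1 library was left out, fewest without DRG replicate 3). Among the higher ones was Lum, a proteoglycan of connective tissue (4.48 ± 2.51 against 0.206 ± 0.180 CPM). The marker lists of Schwann and satellite glia, the companion cells of sensory neurons, summed to 393, 855 and 619 CPM in Astrocytes replicates 1 to 3 and 3024, 8066 and 6905 CPM in DRG replicates 1 to 3; most of that was Ngfr, a neurotrophin receptor that sensory neurons also make (5866 ± 2640.4 CPM in DRG neurons). 8 of 11 tested members of that list were higher in DRG neurons and 1, Fabp7, was lower. The mean sum was 5998 CPM in DRG neurons and 623 CPM in astrocytes, where Ngfr was at 14.5 CPM. The direction of the sum was thus that of Ngfr. The rest of the list summed higher in astrocytes, although Fabp7 was its only member called lower in DRG neurons. Oligodendrocyte lineage markers reached a sum of 1177 and 1228 CPM in Astrocytes replicates 2 and 3, against 316 in replicate 1 and 94.6 to 112 in DRG neurons. Endothelial markers stayed at or under 51.4 CPM in every library. The part of these other cells in the results below was not tested.

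**Figure D1:**
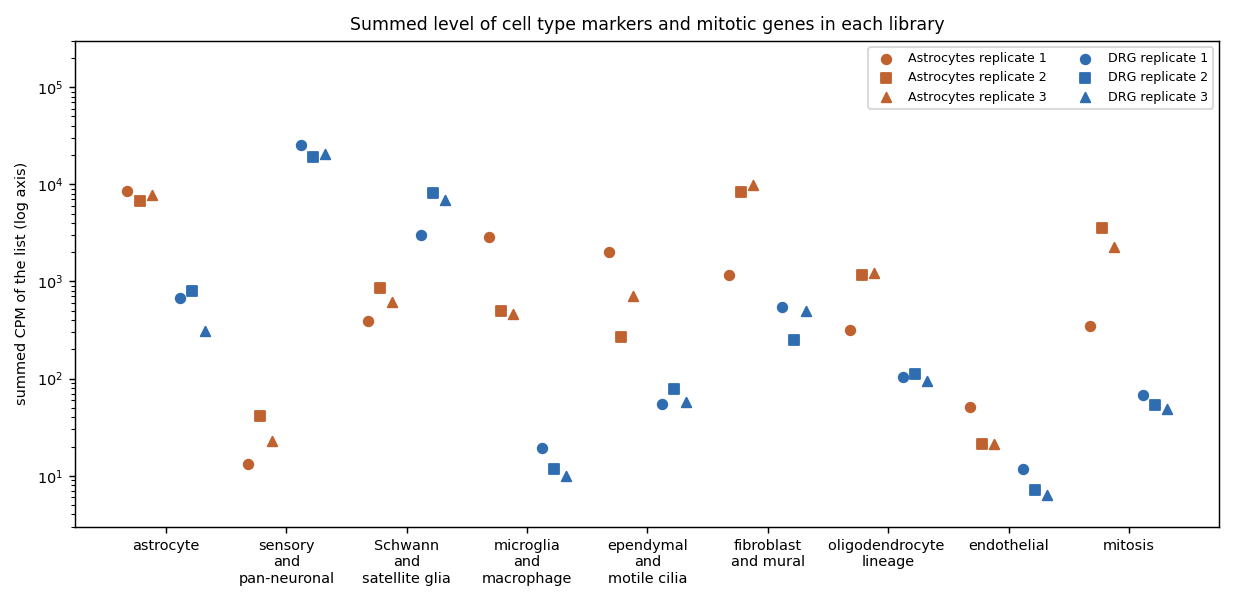
Each point is the summed CPM (log axis) of a marker list or of the mitotic genes in 1 library, with marker shape for the replicate and colour for the group. Astrocytes replicate 1 lies above the other astrocytes for microglia and motile cilia markers and below them for fibroblast, oligodendrocyte lineage and mitotic genes.

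The largest differences in CPM came from a small set of abundant genes, and most of the higher ones belong to the axon. Neurofilament genes, the struts of large axons, led them, with Nefm at 0.132, 10.1 and 0.857 CPM in Astrocytes replicates 1 to 3 and 21369, 5996 and 6876 CPM in DRG replicates 1 to 3. Nefl (10511 ± 4498 against 3.74 ± 5.84 CPM) and Nefh (5616 ± 1686 against 3.60 ± 5.28 CPM) followed the same pattern, with no overlap between groups. Map1b, which stabilizes microtubules in growing axons, was at 108, 271 and 204 CPM in Astrocytes replicates 1 to 3 and 7713, 10547 and 12758 CPM in DRG replicates 1 to 3 (log2 fold change 5.73, SE 0.46, adjusted p = 1.27e-05). Every DRG library stood above every astrocyte library for it, as for Stmn2, a tubulin-binding growth cone protein (5039 ± 705 against 123 ± 17.9 CPM), the 14-3-3 adaptor Ywhag (5159 ± 1089 against 339 ± 87.8 CPM) and the tubulin Tuba1a (6258 ± 689 against 1931 ± 169 CPM). Tubb3 and Ngfr were also among the 10 with the largest gain.

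On the astrocyte side Pea15a, an adaptor of ERK and death receptor signalling, had the largest difference, at 7799.9, 10121 and 12392 CPM in Astrocytes replicates 1 to 3 and 663, 530.1 and 659.7 CPM in DRG replicates 1 to 3 (log2 fold change −4.03, SE 0.27, adjusted p = 4.26e-06). All 3 astrocyte libraries were above all 3 DRG libraries. Igfbp5, which binds insulin-like growth factors, was at 72.3 ± 42.5 against 7733 ± 1263 CPM, and the intermediate filament gene Vim at 517 ± 107 against 6536 ± 1279.9 CPM. Ckb, the cytosolic creatine kinase, was at 649 ± 215 against 3718 ± 181 CPM, and Kcnj10, the inward rectifier channel through which astrocytes buffer potassium, at 4.68 ± 2.68 against 3226 ± 652 CPM. Apoe (97.9 ± 70.6 against 6304 ± 6293 CPM) and Igfbp2 (29.7 ± 19.6 against 4216 ± 2941 CPM) were also among these genes; the fitted fold of each moved by over 1.5 times when 1 library was left out (−6.74 to −4.78 for Apoe and −7.82 to −6.73 for Igfbp2, log2), while both calls held. Acta2 and Tagln, contractile genes, are taken up with the cytoskeleton, and Gfap completed the list.

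**Figure D2:**
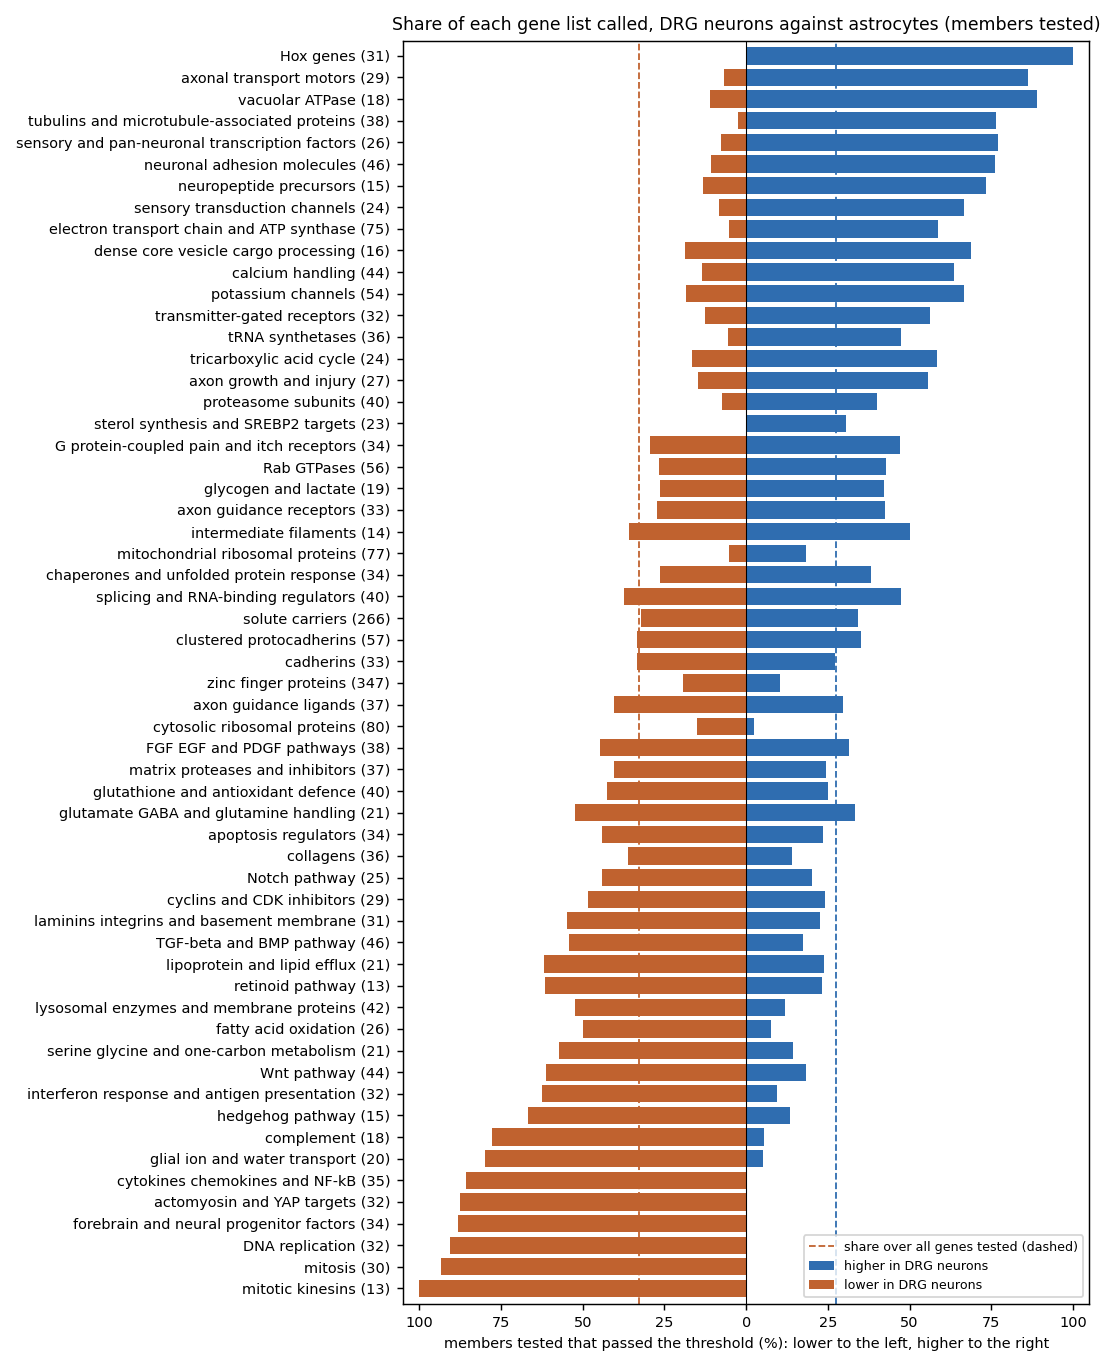
Bars give the percentage of tested members of each gene list that passed the threshold, higher in DRG neurons to the right and lower to the left, with dashed lines at the shares over all genes tested (27.4% and 32.8%). Lists are ordered by the difference of both shares: Hox, axonal transport, vacuolar ATPase and tubulin lists are at one end, and mitotic kinesins, mitosis, DNA replication and forebrain and progenitor factors at the other.

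Channels and receptors of sensory endings were mostly higher in DRG neurons. Of 24 tested channels that turn heat, acid, ATP or force into current, 16 were higher and 2 lower (4 lower without DRG replicate 2). The force-gated channels of the Piezo family split: Piezo2, the touch channel of sensory neurons, was at 0.809, 4.25 and 3.07 CPM in Astrocytes replicates 1 to 3 and 1086, 1758 and 1646 CPM in DRG replicates 1 to 3 (log2 fold change 9.12, SE 0.76, adjusted p = 1.45e-05). Piezo1, used by many cells outside sensory neurons, was at 77.3, 186 and 90.7 CPM in Astrocytes replicates 1 to 3 and 18.2, 10.3 and 8.39 CPM in DRG replicates 1 to 3 (log2 fold change −3.26, SE 0.55, adjusted p = 0.000808). Each had groups that did not overlap, in opposite order. The acid sensor Asic3 was at 311 ± 165 against 0.121 ± 0.0422 CPM and Trpv4, a channel opened by warmth and swelling, was lower at 0.147 ± 0.0292 against 2.08 ± 1.48 CPM.

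Potassium channels, which set the resting potential and end each spike, were higher for 36 of 54 tested members and lower for 10, with a median log2 fold change of 2.75. Kcna2, which dampens firing along the axon, was at 698 ± 439 against 13.7 ± 4.02 CPM (log2 fold change 5.67, SE 0.70, adjusted p = 0.000139). Kcnh6, of the ether-a-go-go related family, was at 51.4 ± 2.97 against 0.0613 ± 0.04995 CPM. Kcnd3, an A-type channel, ran the other way at 63.4 ± 13.4 against 243 ± 24.8 CPM. Transmitter-gated receptors had 18 higher and 4 lower of 32 tested: the nicotinic subunit Chrnb2 was at 186 ± 5.44 against 4.31 ± 0.873 CPM, the serotonin-gated subunit Htr3b at 26.4 ± 11 against 0.00791 ± 0.0137 CPM, and the GABA receptor subunit Gabrb1, lower in DRG neurons, at 0.636 ± 0.518 against 35.4 ± 10.3 CPM.

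G protein-coupled receptors linked to pain and itch were mixed, with 16 higher and 10 lower of 34 tested. Both subunits of the GABA-B receptor, which lowers transmitter release, were higher: Gabbr1 was at 864 ± 98.3 against 39.7 ± 5.92 CPM and Gabbr2 at 238 ± 37.6 against 1.20 ± 0.382 CPM. The itch receptor Mrgprx1 was at 49.0 ± 14.4 against 0.0237 ± 0.0411 CPM. The sphingosine phosphate receptor S1pr1 was lower, at 171, 135 and 136 CPM in Astrocytes replicates 1 to 3 and 2.71, 2.57 and 3.72 CPM in DRG replicates 1 to 3 (log2 fold change −5.62, SE 0.37, adjusted p = 4.12e-06), with all astrocyte libraries above all DRG libraries. Among neurotrophin and GDNF family receptors 5 of 8 were higher, Ngfr among them. 3 were lower, among them Ntrk2, the receptor of BDNF (0.989 ± 0.557 against 915 ± 493 CPM), and the sorting receptor Sort1 (0.254 ± 0.161 against 5.58 ± 0.400 CPM).

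Genes that make, pack and release peptides were mostly higher in the neurons. Neuropeptide precursors had 11 higher and 2 lower of 15 tested (1 lower without DRG replicate 2 or any 1 OPC library), and 11 more of the list had too few reads. Vgf, a granin-like precursor, was at 1.43, 18 and 8.96 CPM in Astrocytes replicates 1 to 3 and 277, 472 and 337 CPM in DRG replicates 1 to 3, and Tac1, the precursor of substance P, at 0, 0.451 and 0 CPM in Astrocytes replicates 1 to 3 and 165, 136 and 298 CPM in DRG replicates 1 to 3. The DRG libraries were the higher ones for both. Of 16 genes for dense core vesicles, 11 were higher and 3 lower. Secretogranin II, Scg2, was at 1.35, 15.9 and 12.6 CPM in Astrocytes replicates 1 to 3 and 879.8, 679 and 534 CPM in DRG replicates 1 to 3 (log2 fold change 6.14, SE 0.80, adjusted p = 0.000181). All DRG libraries lay above all astrocyte libraries. The chaperone Scg5 was at 633 ± 43.0 against 197 ± 61.6 CPM, the prohormone convertase Pcsk1 at 84.8 ± 7.58 against 0.0715 ± 0.0341 CPM, and chromogranins Chga and Chgb at 409.8 ± 202 against 1.67 ± 0.806 CPM and 196 ± 106 against 37.9 ± 8.39 CPM. Pam, which amidates peptides in both cell types, was lower in DRG neurons (log2 fold change −0.96, SE 0.24, adjusted p = 0.00715).

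Promoters of this list were searched for sequence motifs. The palindrome TGACGTCA, the full cyclic AMP response element, was in 3 of 16 promoter windows of the dense core vesicle list (18.8%), against 2.91% of the windows of tested genes and 1.79% of all 32851. Some other lists had similar shares, such as mitotic kinesins (2 of 12, 16.7%), which were lower in DRG neurons, and the tricarboxylic acid cycle (4 of 27, 14.8%). Many lists had no match. A window is 300 bases, 250 before the annotated start and 50 after it, from RefSeq on GRCm38.p6. In all 16 motifs were searched on both strands, and those given here were picked after their shares were seen. Shown are the windows of both granins that hold the element, 5′ to 3′ on the gene's strand with the match in capitals: Scg2 (chr1:79439977-79440276, minus strand; match 68 bases before the start) and Chgb (chr2:132781392-132781691, plus strand; match 72 bases before the start).
Scg2: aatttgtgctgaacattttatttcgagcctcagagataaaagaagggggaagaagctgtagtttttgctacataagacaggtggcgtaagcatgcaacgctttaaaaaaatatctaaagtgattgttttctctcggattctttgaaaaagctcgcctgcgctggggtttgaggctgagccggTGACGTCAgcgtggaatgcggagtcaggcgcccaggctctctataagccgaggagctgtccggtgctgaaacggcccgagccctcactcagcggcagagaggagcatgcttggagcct
Chgb: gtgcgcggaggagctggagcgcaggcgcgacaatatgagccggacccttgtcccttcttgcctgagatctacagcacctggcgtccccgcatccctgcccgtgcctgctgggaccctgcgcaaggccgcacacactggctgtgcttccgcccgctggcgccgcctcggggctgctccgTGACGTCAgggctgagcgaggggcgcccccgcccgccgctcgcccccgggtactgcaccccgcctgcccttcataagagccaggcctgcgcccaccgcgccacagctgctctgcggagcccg
Both windows hold the element once. A match describes the letters and does not show that a factor bound there.

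The microtubule tracks and motors of the axon were mostly higher. Of 38 tubulins and microtubule-associated proteins, 29 were higher, with a median of 2.27 (2.02 with the 1 member that had a group at 0 counts placed at its bound), and 1 was lower (2 without Astrocytes replicate 1). The axonal protein Mapt (tau) was at 72.6 ± 9.72 against 0.0798 ± 0.0297 CPM. The lower one was Map2, for which reads were counted on isoform-specific parts of 2 RefSeq accessions (0.463 ± 0.228 against 22.6 ± 4.17 CPM), so its direction covers those parts only. Tubulin genes are close copies of each other, and reads that fit several were not assigned. Axonal motors had 25 of 29 higher and 2 lower (median 2.52). The heavy chain of dynein, the motor toward the cell body, Dync1h1, was at 738, 953 and 947 CPM in Astrocytes replicates 1 to 3 and 3667, 4498 and 4283 CPM in DRG replicates 1 to 3 (log2 fold change 2.24, SE 0.21, adjusted p = 2.83e-05), with the DRG libraries above the astrocytes. Kif5c, a motor toward the axon tip, was at 2182 ± 208 against 109 ± 27.2 CPM. Kif1c ran the other way (26.9 ± 6.53 against 394 ± 33.4 CPM). Kinesins of cell division were the mirror image, with 13 of 13 lower in DRG neurons, such as the spindle motor Kif11 (3.54 ± 0.580 against 100.2 ± 53.7 CPM) and Kif23 of the dividing cell's midzone (0.367 ± 0.241 against 67.0 ± 54.9 CPM).

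Contractile genes had no higher member. Of 32 tested genes of actin-myosin contraction and of YAP, the coactivator that responds to stretch, 28 were lower, with a median of −3.25. Acta2, smooth muscle actin, was at 413, 4639 and 5998 CPM in Astrocytes replicates 1 to 3 and 77.6, 8.99 and 36.5 CPM in DRG replicates 1 to 3, and Tagln, an actin bundler, at 727, 3292 and 3509 CPM in Astrocytes replicates 1 to 3 and 63.5, 7.09 and 27.7 CPM in DRG replicates 1 to 3. Astrocytes replicate 1 was the lowest of the astrocytes for both and still above every DRG library. Both genes are also on the list of fibroblast and mural markers. Its other 10 markers summed to 14.6, 330.2 and 242 CPM in Astrocytes replicates 1 to 3, also lowest in replicate 1. In DRG replicates 1 to 3 they summed to 405, 234 and 438 CPM. The part of such cells was not tested. The contractile list had 29 of 32 lower without Astrocytes replicate 1. The motif CATTCC, read by TEAD factors, or its other strand GGAATG, was in 18 of 33 promoter windows of this list (54.5%), against 12.6% for tested genes and 14.7% of all windows. The window of Acta2 (chr19:34255324-34255623, minus strand) holds it 146 bases before the start, on the other strand, and is shown because this gene had the largest loss of the list.
Acta2: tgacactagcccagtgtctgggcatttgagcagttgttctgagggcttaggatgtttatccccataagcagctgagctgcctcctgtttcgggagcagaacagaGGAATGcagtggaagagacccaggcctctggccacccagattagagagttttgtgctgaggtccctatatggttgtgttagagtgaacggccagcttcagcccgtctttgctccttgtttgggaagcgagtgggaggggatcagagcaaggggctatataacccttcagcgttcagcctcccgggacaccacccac
The capitals mark the match.

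Adhesion molecules of axons and synapses had 35 higher and 5 lower of 46 tested (median 3.24). Thy1, a surface glycoprotein of neurons, was at 113, 248 and 168 CPM in Astrocytes replicates 1 to 3 and 1557, 1775 and 1744 CPM in DRG replicates 1 to 3 (log2 fold change 3.26, SE 0.51, adjusted p = 0.000553), with no overlap between groups. On the astrocyte side were Cadm4, an adhesion protein of glia (99.96 ± 9.58 against 433 ± 48.5 CPM), and the neuroligin Nlgn3 (30.7 ± 8.16 against 64.8 ± 7.22 CPM). Cadherins outside the clusters had 9 higher and 11 lower of 33 (27.3% and 33.3%), close to the shares of all genes tested (27.4% and 32.8%). Celsr3, needed for axon tracts, was at 93.6 ± 6.5 against 1.24 ± 0.618 CPM, while its relative Celsr1 was at 1.55 ± 0.700 against 99.9 ± 36.3 CPM and the N-cadherin gene Cdh2 at 295 ± 26.1 against 1070.4 ± 261 CPM. Clustered protocadherins, which give neurons single-cell surface identities, had 20 higher and 19 lower of 57 (35.1% and 33.3%). Pcdhac2 of the alpha cluster was higher (236 ± 22.3 against 9.12 ± 3.06 CPM), and Pcdhgc3 of the gamma cluster lower (68.5 ± 9.36 against 485 ± 135 CPM). Isoforms of a cluster share their last exons, where reads could not be assigned to 1 of them, so these values cover the variable exons.

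Guidance genes had calls in both directions. Ligands had 11 higher and 15 lower of 37 (29.7% and 40.5%), and receptors 14 higher and 9 lower of 33 (42.4% and 27.3%). Over all genes tested the shares were 27.4% and 32.8%. Sema5a, a semaphorin, was higher in DRG neurons (511 ± 186 against 26.1 ± 6.43 CPM). Its relative Sema5b was lower (0.236 ± 0.0804 against 72.2 ± 26.2 CPM), as were both netrins that passed, Ntn1, the classical axon attractant (98.6, 185 and 137 CPM in Astrocytes replicates 1 to 3 and 0.947, 0.695 and 1.08 CPM in DRG replicates 1 to 3), and Ntn4 (2.88 ± 0.733 against 141 ± 2.62 CPM). Among receptors Plxna2 (732 ± 103 against 112 ± 24.8 CPM) and Plxna4 (638 ± 95.4 against 60.3 ± 11.3 CPM), which sense semaphorins, and Epha6 (50 ± 15.3 against 0.530 ± 0.212 CPM) were higher and Epha4 was lower (41.2 ± 16.9 against 196 ± 75.2 CPM). Of 27 genes of axon growth and nerve injury 15 were higher and 4 lower. Gap43, a growth cone protein, was at 9.61, 38.6 and 45.8 CPM in Astrocytes replicates 1 to 3 and 1788, 1639.8 and 1464 CPM in DRG replicates 1 to 3 (log2 fold change 5.70, SE 0.56, adjusted p = 3.46e-05), with no overlap between groups. Nrn1, which promotes neurite growth, was at 1059 ± 486 against 33.9 ± 13 CPM. Marcks, which links actin to the membrane, was lower (132 ± 65.4 against 403 ± 50.5 CPM), and Socs3, a brake on cytokine signalling, was too (15.3 ± 5.17 against 37.6 ± 7.61 CPM). The injury factors Atf3 (75.6 ± 55.8 against 22.7 ± 14.8 CPM, adjusted p = 0.0794) and Sox11 (65.9 ± 35.3 against 33.0 ± 18.4 CPM, adjusted p = 0.123) did not pass.

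Calcium handling genes were higher more often than lower. Of 44 genes 28 were higher and 6 lower (median 2.50). Calm2, which encodes the calcium sensor calmodulin, was at 2289.6 ± 246 against 378 ± 52.9 CPM. The ryanodine receptors Ryr2 (278 ± 89.6 against 2.86 ± 0.725 CPM) and Ryr3 (24.8 ± 8.12 against 2.17 ± 1.53 CPM) were higher in DRG neurons, and the inositol trisphosphate receptors Itpr1 (16.4 ± 6.61 against 113 ± 26.6 CPM) and Itpr2 (0.0523 ± 0.0526 against 0.822 ± 0.119 CPM) lower. S100b, a calcium-binding protein used as an astrocyte marker in the brain, was higher in DRG neurons, at 71.2, 26.5 and 53.2 CPM in Astrocytes replicates 1 to 3 and 563, 639 and 922 CPM in DRG replicates 1 to 3 (log2 fold change 3.82, SE 0.92, adjusted p = 0.00585). All 3 DRG libraries were above the astrocytes. Schwann and satellite glia also make S100b. Of their 11 tested markers, given above, 8 were higher in DRG neurons and 1, Fabp7, lower. The sum of these markers without Ngfr was higher in astrocytes, although only Fabp7 was called lower. The part of such cells in the S100b levels was not tested.

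Related genes of 1 family were compared in 33 sets. In 16 of them 1 or more genes were higher and others lower in DRG neurons, and in 17 the called genes went 1 way; 60.2% of all tested genes were called. For enolase, a step of glycolysis, Eno2 was at 2026 ± 301 against 38.9 ± 14.2 CPM while Eno1 did not pass (129.97 ± 37.9 against 112 ± 32.6 CPM, adjusted p = 0.55). The translation factor Eef1a2 was at 53.0, 10.4 and 29.8 CPM in Astrocytes replicates 1 to 3 and 1227, 1524 and 1622 CPM in DRG replicates 1 to 3, with no overlap, and its partner Eef1a1 did not pass (3799 ± 921 against 5819 ± 269 CPM, adjusted p = 0.063). Per kilobase of transcript, on the CPM per kilobase scale, Eef1a2 was at 699 ± 98.6 and Eef1a1 at 2118 ± 513 in DRG neurons, so the shared form was still the more abundant. For creatine kinase the mitochondrial Ckmt1 was higher in DRG neurons (291 ± 130.2 against 5.47 ± 1.32 CPM) and the cytosolic Ckb lower. Sodium pump beta subunits differed in direction, with Atp1b1 at 2947 ± 355 against 497 ± 116 CPM, Atp1b2 at 7.29 ± 3.99 against 698 ± 131 CPM and Atp1b3 not passing (321 ± 29.7 against 264 ± 20.5 CPM, adjusted p = 0.118). Among glucose transporters Slc2a3, the high-affinity form of neurons, was at 458 ± 59.6 against 54.3 ± 23.7 CPM, the insulin-responsive Slc2a4 at 0.373 ± 0.197 against 31.6 ± 4.84 CPM, and Slc2a1 did not pass (249.6 ± 155 against 228 ± 104.8 CPM, adjusted p = 0.814).

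In membrane fusion Vamp2, the synaptic vesicle form, was at 1019.9 ± 53.0 against 126 ± 23.8 CPM and the ubiquitous Vamp3 at 15.3 ± 4.62 against 191 ± 41.7 CPM. Stxbp3, which binds syntaxins outside the synapse, was at 7.23 ± 0.975 against 63.0 ± 11.6 CPM. Dnm1, which pinches off synaptic vesicles, was at 917 ± 55.1 against 2.24 ± 0.818 CPM and the widespread Dnm2 at 3.48 ± 0.425 against 17.3 ± 3.46 CPM. The count of Dnm2 covers isoform-specific reads only. Sncg, a synuclein known from sensory neurons, was higher (1763 ± 298 against 1.27 ± 1.30 CPM). Of the annexins Anxa2 was higher (3519 ± 608 against 569 ± 49.0 CPM) and Anxa3 lower (8.01 ± 4.99 against 911 ± 173 CPM), with no overlap for either. Calcineurin A genes Ppp3ca (1418 ± 361 against 141 ± 17.0 CPM), Ppp3cb (257 ± 8.40 against 79.7 ± 15.9 CPM) and Ppp3cc (46.7 ± 4.14 against 17.8 ± 1.85 CPM) were all higher, while for protein kinase C Prkca was lower (68.9 ± 9.39 against 301 ± 46.9 CPM). The actin genes Actb (1335 ± 227 against 2971 ± 451 CPM) and Acta2 were lower and Actg1 did not pass (4469 ± 408 against 3412 ± 1095 CPM); actins are near copies of each other, so their split is uncertain.

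**Figure D3:**
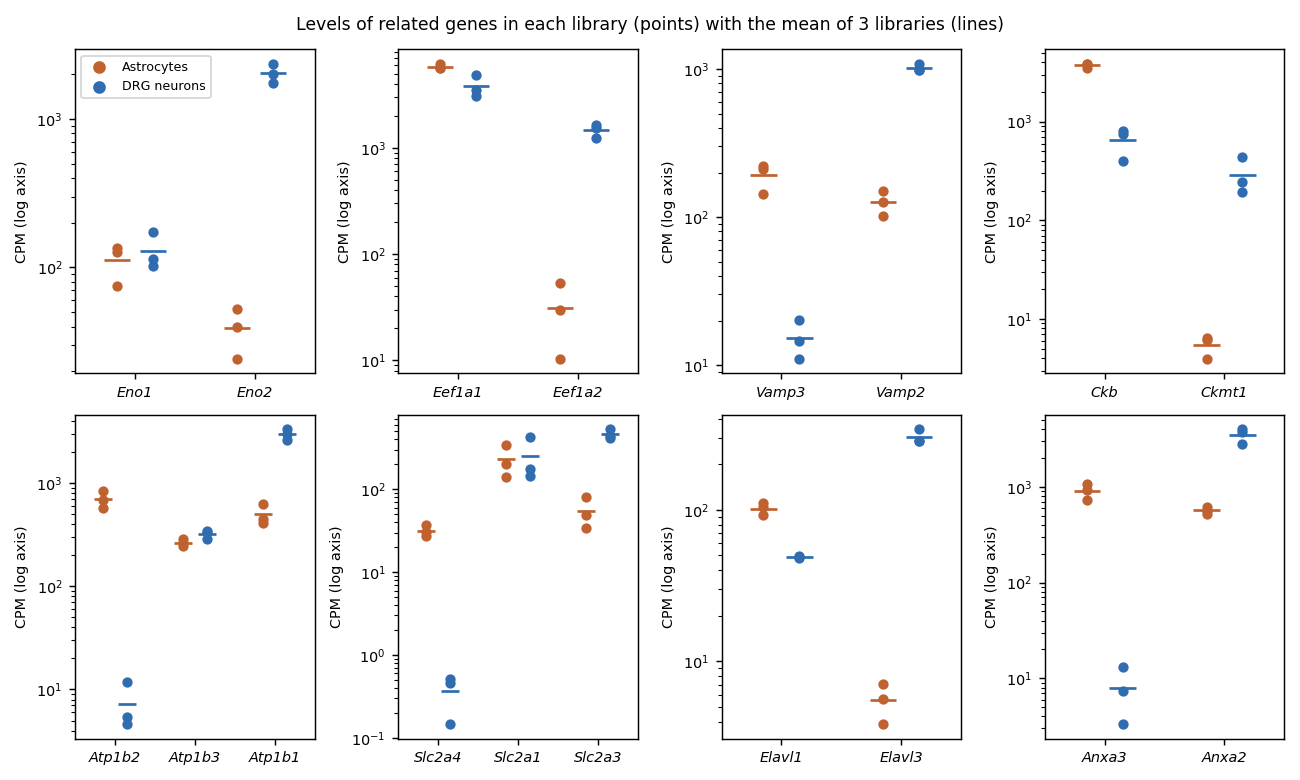
Points give the CPM (log axis) of related genes in each library, lines the mean of 3 libraries, with astrocytes and DRG neurons in separate colours. Within a family 1 gene is higher in DRG neurons and another higher in astrocytes or not passing the test, as for Eno2 and Eno1, or Vamp2 and Vamp3.

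Respiratory chain genes were more often higher than lower in DRG neurons. Of 75 subunits of the respiratory chain and ATP synthase 44 were higher and 4 lower, with a median of 0.67. Atp5b, the catalytic subunit of ATP synthase, was at 949, 1351 and 1407 CPM in Astrocytes replicates 1 to 3 and 2453, 2215 and 2307 CPM in DRG replicates 1 to 3 (log2 fold change 0.91, SE 0.24, adjusted p = 0.00913), and all DRG libraries were above all astrocytes. Ndufa10 of complex I was at 300.1 ± 8.003 against 106 ± 5.87 CPM. Atp5g2, a membrane ring subunit of ATP synthase, was lower (109 ± 11.7 against 175 ± 12.6 CPM). With library size alone as the scaling 29 of these subunits were higher, and without Astrocytes replicate 1 36. In the tricarboxylic acid cycle 14 of 24 were higher and 4 lower (lower ones 2 without DRG replicate 1). The cytosolic malate dehydrogenase Mdh1 was at 821 ± 60.8 against 429 ± 14.1 CPM and citrate synthase Cs at 698 ± 58.8 against 418 ± 25.4 CPM. A swap was seen at succinyl-CoA ligase, where Sucla2, the ATP-forming subunit, was higher (367 ± 24.6 against 119 ± 6.38 CPM) and Suclg2, the GTP-forming subunit, lower (14.5 ± 8.93 against 168 ± 46.3 CPM). NADPH-forming Idh2 was lower too (19.0 ± 1.44 against 284 ± 107 CPM).

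Fatty acid oxidation genes were lower more often than higher. Of 26 fatty acid oxidation genes 2 were higher (1 without Astrocytes replicate 2 or 3 or DRG replicate 2) and 13 lower. Etfa, which passes electrons from fat oxidation to the respiratory chain, was at 82.8 ± 8.37 against 181 ± 38.8 CPM, and Acot1, an acyl-CoA hydrolase, at 1.93 ± 1.23 against 53.1 ± 20.5 CPM; the activating enzyme Acsl1 was higher in DRG neurons (114 ± 1.44 against 20.4 ± 1.8 CPM). The carnitine transferase Cpt1a, the entry step, did not pass (376 ± 105.3 against 314 ± 43.5 CPM, adjusted p = 0.559). Glycogen and lactate genes had 8 higher and 5 lower of 19 (42.1% and 26.3%, against 27.4% and 32.8% of all genes tested). The lactate transporter gene Slc16a1 was lower (174 ± 43.2 against 433 ± 191 CPM), as was Ppp1r3c, which targets a phosphatase to glycogen (9.88 ± 6.58 against 113 ± 21.9 CPM). Lactate dehydrogenase A, Ldha, was higher (2.89 ± 1.40 against 0.258 ± 0.0861 CPM) and Ldhb did not pass (581 ± 224 against 867 ± 473 CPM, adjusted p = 0.25). The count of Ldha covers isoform-specific reads only, so its direction holds for those reads.

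Sterol synthesis had no lower gene. Of 23 tested 7 were higher (median 0.85), 12 without DRG replicate 1. Squalene synthase Fdft1, which makes the first sterol-specific intermediate, was at 116, 302 and 227 CPM in Astrocytes replicates 1 to 3 and 342, 625 and 598 CPM in DRG replicates 1 to 3, with every DRG library the higher. Lipid carriers were lower on balance, with 13 of 21 lower and 5 higher, the latter 3 without DRG replicate 2. Clu (clusterin, also called apolipoprotein J) was at 3405, 1209 and 1708 CPM in Astrocytes replicates 1 to 3 and 152, 174 and 142 CPM in DRG replicates 1 to 3 (log2 fold change −3.76, SE 0.38, adjusted p = 4.25e-05), with all astrocytes above all DRG libraries. The endocytic receptor Lrp2 was lower (0.738 ± 0.364 against 227 ± 37.0 CPM), and Apod, a lipocalin made by glia of nerves, was higher (67.6 ± 28.7 against 0.689 ± 0.266 CPM).

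Genes for functions known of astrocytes were mostly lower in the neurons. For glial ion and water transport 16 of 20 were lower and 1, the volume-regulated channel subunit Lrrc8a (122 ± 13.1 against 67.8 ± 7.14 CPM), was higher. Mlc1, a membrane protein of astrocyte endfeet, was at 2174, 1008 and 1319 CPM in Astrocytes replicates 1 to 3 and 0.778, 0.716 and 1.32 CPM in DRG replicates 1 to 3 (log2 fold change −10.64, SE 0.71, adjusted p = 4.57e-06), with DRG libraries near 0. Transmitter handling had 11 lower and 7 higher of 21. Glul, which makes glutamine from glutamate, was lower (112 ± 24.2 against 725 ± 181 CPM). Serine, glycine and folate genes had 12 lower and 3 higher of 21 (5 higher in DESeq2 or with the length trend removed). The glycine decarboxylase Gldc was at 1.15 ± 0.178 against 166 ± 18 CPM and the folate enzyme Aldh1l1 at 6.52 ± 3.81 against 281 ± 57.4 CPM. The mitochondrial folate enzyme Mthfd2 was higher (log2 fold change 2.41, SE 0.38, adjusted p = 0.000546), at 17.0, 51.4 and 29.3 CPM in Astrocytes replicates 1 to 3 and 169, 176 and 172 CPM in DRG replicates 1 to 3, with no overlap.

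Antioxidant genes moved in both directions, with 10 higher and 17 lower of 40 (25% and 42.5%, against 27.4% and 32.8% of all genes tested). Among peroxiredoxins, which remove peroxides, Prdx2 was higher (799 ± 128 against 414 ± 31.4 CPM) and Prdx6 lower (129 ± 9.70 against 2355 ± 1069 CPM). Sulfiredoxin Srxn1, which repairs peroxiredoxins, was higher (681 ± 199.7 against 121 ± 5.36 CPM). The metallothioneins Mt1 (87.4 ± 38.2 against 512 ± 259 CPM), Mt2 (56.4 ± 23.9 against 574 ± 288 CPM) and Mt3 (151 ± 38.9 against 766 ± 390.3 CPM) were all lower. The secreted superoxide dismutase Sod3 was lower (3.49 ± 2.42 against 128 ± 71.8 CPM).

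In protein turnover the acidifying pump was mostly higher and lysosomal enzymes were more often lower. Of 18 subunits of the vacuolar ATPase, which acidifies lysosomes and loads synaptic vesicles, 16 were higher and 2 lower (median 1.26). Atp6v1b2 was at 239, 253 and 222 CPM in Astrocytes replicates 1 to 3 and 783, 1282 and 1301 CPM in DRG replicates 1 to 3 (log2 fold change 2.24, SE 0.24, adjusted p = 6.42e-05), with all DRG libraries above. Atp6v1a was at 835 ± 209.9 against 361 ± 23.2 CPM and the neuronal Atp6v1g2 at 204 ± 32.5 against 8.59 ± 1.34 CPM. The subunits Atp6v0a2 (82.2 ± 33.4 against 274 ± 41.2 CPM) and Atp6v0e (22.7 ± 4.91 against 120.0 ± 8.49 CPM) were the lower ones, and for each a relative, Atp6v0a1 (3.58 ± 0.310 against 0.523 ± 0.0503 CPM) or Atp6v0e2 (437 ± 26.8 against 158 ± 13.9 CPM), was higher. The count of Atp6v0a1 covers isoform-specific reads only. Scaled by library size alone 13 of the 18 subunits were higher. Lysosomal enzymes and membrane proteins had 22 lower and 5 higher of 42 (median −1.12). Lamp1, a lysosomal membrane protein, was lower (log2 fold change −1.19, SE 0.21, adjusted p = 0.000973), at 1491, 1469 and 1345 CPM in Astrocytes replicates 1 to 3 and 624, 638 and 628 CPM in DRG replicates 1 to 3. The protease Ctso was lower (3.82 ± 1.28 against 149.8 ± 50.4 CPM), while cathepsin L, Ctsl, was higher (1419 ± 256 against 489 ± 19.2 CPM), as was the sialidase Neu1 (86.4 ± 6.94 against 48.0 ± 7.78 CPM). Summed levels of the lysosomal list were 18833, 10384 and 10573 CPM in Astrocytes replicates 1 to 3. In DRG replicates 1 to 3 they were 7978, 10856 and 11456 CPM, so the sums of the groups overlapped. Microglia, whose markers were high in Astrocytes replicate 1, also carry many lysosomes. Without that library 21 of 42 were lower and 5 higher. Microglia markers still summed to 498 and 464 CPM in Astrocytes replicates 2 and 3, so this fit does not remove microglia. Their part was not tested.

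The E-box CACGTG is read by TFEB, which controls lysosomal genes, and by other helix-loop-helix factors. It was in 12 of 38 lysosomal windows (31.6%) and 4 of 16 vacuolar ATPase windows (25%), against 9.55% for tested genes and 7.15% of all windows. One window of each list is shown, since their genes moved in opposite directions: Lamp1 (chr8:13158911-13159210, plus strand), with 4 matches, and Atp6v1a (chr16:44139210-44139509, minus strand), with 1 match.
Lamp1: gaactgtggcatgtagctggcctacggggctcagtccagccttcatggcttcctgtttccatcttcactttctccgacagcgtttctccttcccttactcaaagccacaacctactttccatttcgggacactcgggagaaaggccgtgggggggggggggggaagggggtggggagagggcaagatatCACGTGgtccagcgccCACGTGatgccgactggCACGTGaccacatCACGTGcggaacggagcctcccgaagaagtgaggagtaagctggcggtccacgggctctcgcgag
Atp6v1a: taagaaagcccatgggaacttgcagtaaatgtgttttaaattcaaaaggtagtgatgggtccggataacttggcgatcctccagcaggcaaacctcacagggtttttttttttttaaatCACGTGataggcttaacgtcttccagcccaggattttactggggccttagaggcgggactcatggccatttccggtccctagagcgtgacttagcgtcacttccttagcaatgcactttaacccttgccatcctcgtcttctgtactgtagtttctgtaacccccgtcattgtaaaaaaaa
The capitals mark the E-boxes, which in Lamp1 begin 61, 45, 28 and 15 bases before the start and in Atp6v1a 131 bases before it.

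The proteasome, which degrades tagged proteins, had 16 higher and 3 lower of 40 tested (median 0.51); 10 were higher without DRG replicate 3 and 9 with library size alone, which also called 5 lower. Psmc6 of the regulatory cap was at 373 ± 19.1 against 127 ± 23.9 CPM and the standard catalytic subunit Psmb5 at 212 ± 63.2 against 112 ± 7.07 CPM. The lower members were those of the immune form, Psmb8 (2.46 ± 1.21 against 20.1 ± 14.9 CPM), Psmb9 (0.943 ± 0.438 against 6.98 ± 5.68 CPM) and the activator Psme1 (22.9 ± 17.7 against 63.0 ± 18.6 CPM). The call of Psme1 held in 5 of the 9 fits that left out 1 library and ended in those without Astrocytes replicate 1, DRG replicate 2, DRG replicate 3 or OPC replicate 3. Chaperones had 13 higher and 9 lower of 34 (38.2% and 26.5%, against 27.4% and 32.8% of all genes tested). The cytosolic Hspa8 (6275 ± 630.1 against 2830.3 ± 653 CPM) and Hsp90ab1 (5037 ± 651 against 2359 ± 383 CPM) were higher, and Hsp90b1 (585 ± 17.5 against 1225 ± 155 CPM) and Calr (547 ± 51.6 against 987 ± 121 CPM) of the endoplasmic reticulum lower, as was the small heat shock protein Hspb6 of the cytosol (2.70 ± 0.346 against 68.8 ± 25.5 CPM). Of the list's disulfide isomerases Pdia3 (439.6 ± 19.4 against 868 ± 168 CPM), Pdia4 (62.0 ± 3.05 against 414 ± 33.5 CPM) and Pdia6 (125 ± 24.7 against 381 ± 111 CPM) were also lower. Hspa5, the main chaperone of the endoplasmic reticulum, did not pass (10.9 ± 4.57 against 11.1 ± 3.70 CPM, adjusted p = 0.958). Its count covers isoform-specific reads only.

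Most genes of protein synthesis did not pass the test. Of 36 tRNA synthetases, which load amino acids, 17 were higher and 2 lower (11 higher without DRG replicate 2, 6 lower with library size alone), led by Aars (150.1, 315 and 249 CPM in Astrocytes replicates 1 to 3 and 614, 796 and 827 CPM in DRG replicates 1 to 3; log2 fold change 1.65, SE 0.30, adjusted p = 0.00133) with all DRG libraries on top, and by Gars (667 ± 43.4 against 104 ± 29.9 CPM). The transcription factor Atf4, which induces such genes under amino acid shortage, was higher (44.1 ± 6.41 against 8.03 ± 4.72 CPM, adjusted p = 0.00792), as were Ddit3 (23.8 ± 12 against 4.79 ± 1.86 CPM) and Trib3 (22.5 ± 0.870 against 2.71 ± 1.18 CPM). Ribosomal proteins of the cytosol had 2 higher and 12 lower of 80, a share of calls under that of all genes, and a median of −0.20; 37 were lower with library size alone and 7 without Astrocytes replicate 3, and 6 with the length trend removed. The higher ones numbered 4 without OPC replicate 3 and 0 to 5 over the other alternatives. Their mitochondrial counterparts had 14 higher and 4 lower of 77 (26 higher without OPC replicate 3, 25 in DESeq2, 30 with the length trend removed and 7 with library size alone). Ribosomal protein genes have many near-identical processed copies, so their counts are uncertain.

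**Figure D4:**
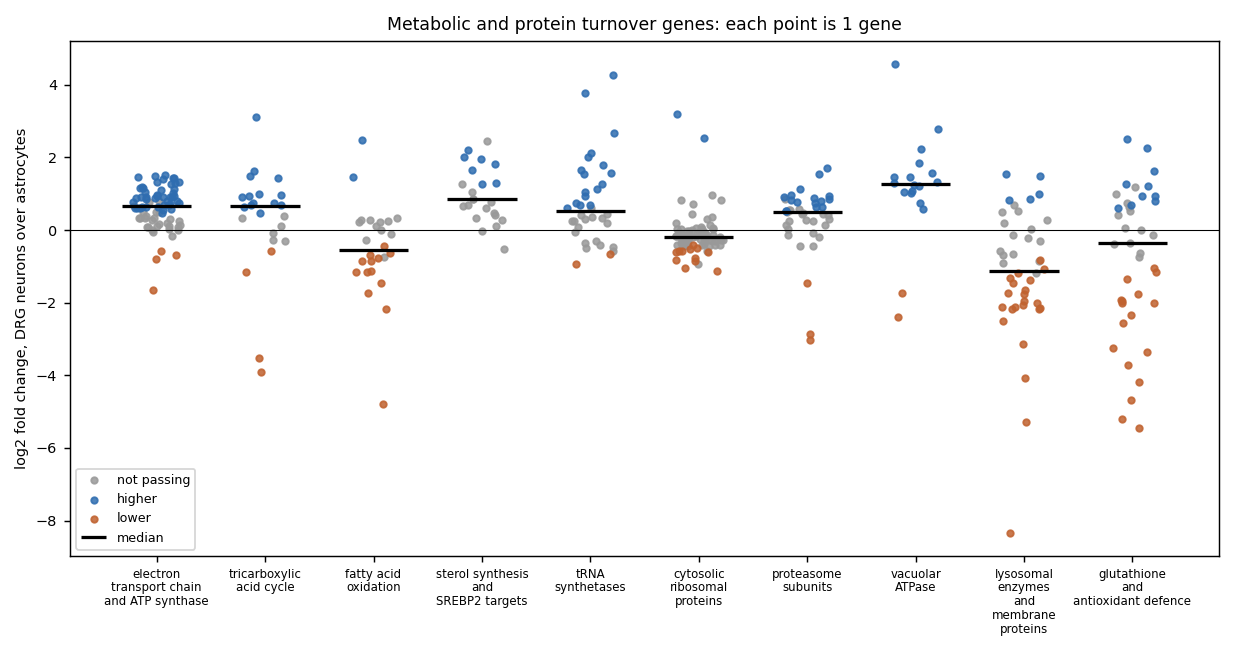
Each point is the log2 fold change (DRG neurons over astrocytes) of 1 tested gene, coloured by its call, and each bar is the median of its list. Respiratory chain, tricarboxylic acid cycle and vacuolar ATPase genes lie mostly above 0, and fatty acid oxidation and lysosomal genes mostly below it.

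Immune genes were lower in the neurons, and some of them moved with Astrocytes replicate 1. Of 35 cytokine, chemokine and NF-kB genes 30 were lower and 0 higher; without Astrocytes replicate 1 29 of 36 were lower. The other astrocyte libraries also held microglia markers, so leaving out Astrocytes replicate 1 does not remove these cells. The microglial receptors Csf1r (734, 136 and 118 CPM in Astrocytes replicates 1 to 3 and 1.73, 0.589 and 0.387 CPM in DRG replicates 1 to 3) and Cx3cr1 (500.1, 74.9 and 80.1 CPM in Astrocytes replicates 1 to 3 and 0.305, 0.147 and 0.0775 CPM in DRG replicates 1 to 3) headed the list and were highest in that library. Rela, a subunit of NF-kB made by most cells, was at 46.4 ± 7.48 against 94.1 ± 8.54 CPM. Complement had 14 of 18 lower and 1 higher, against 14 of 18 lower without that library. Its central component C3 was at 1125, 130.2 and 571 CPM in Astrocytes replicates 1 to 3 and 5.04, 2.11 and 0.955 CPM in DRG replicates 1 to 3, and C4b at 0.327 ± 0.0797 against 145 ± 86.0 CPM. Cd55, which shields cells from complement, was higher in DRG neurons (95.3 ± 17.6 against 6.63 ± 4.38 CPM). Interferon and antigen presentation genes had 20 lower and 3 higher of 32, and 18 lower and 6 higher of 33 without Astrocytes replicate 1. Stat2, which carries the interferon signal, was higher (235 ± 67.9 against 62.6 ± 24.0 CPM). Ifit2, an interferon-induced gene, was at 142, 105.1 and 98.1 CPM in Astrocytes replicates 1 to 3 and 9.91, 10.46 and 12.2 CPM in DRG replicates 1 to 3 (log2 fold change −3.41, SE 0.26, adjusted p = 8.15e-06), with the astrocytes above in every library.

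Matrix genes moved in both directions. Of 36 collagens 5 were higher (3 without Astrocytes replicate 3) and 13 lower. These were 13.9% and 36.1%, against 27.4% and 32.8% of all genes tested. Without Astrocytes replicate 1, 15 of 37 were lower. Collagens summed to 1771, 7300 and 5715 CPM in Astrocytes replicates 1 to 3. In DRG replicates 1 to 3 they summed to 1537, 950 and 1796 CPM, so Astrocytes replicate 1 lay within the DRG range. Col5a2 (108 ± 43.1 against 1672 ± 1082 CPM) and Col11a1 (15.9 ± 6.43 against 742 ± 501 CPM) of fibrils were lower, and Col28a1, a collagen of peripheral nerve glia, was higher (44.6 ± 32.7 against 0.0567 ± 0.0755 CPM). Laminins, integrins and basement membrane genes had 17 lower and 7 higher of 31. Agrn, a heparan sulfate proteoglycan, was at 139 ± 20.5 against 579.9 ± 287 CPM and Lamb2 at 26.4 ± 14.9 against 671 ± 34.8 CPM. Integrin alpha chains had calls in both directions, with Itga7 (398 ± 143 against 79.7 ± 47.1 CPM), a laminin receptor of sensory axons, higher and Itga1 (2.34 ± 0.863 against 138 ± 64.1 CPM) lower. Proteases and inhibitors had 9 higher and 15 lower of 37 (24.3% and 40.5%, against 27.4% and 32.8% of all genes tested). Timp2, an inhibitor of matrix metalloproteases, was higher (1001, 1167 and 996 CPM in Astrocytes replicates 1 to 3 and 2088, 2803 and 3213 CPM in DRG replicates 1 to 3; log2 fold change 1.36, SE 0.22, adjusted p = 0.000675), with no overlap, and Timp4 lower (0.0791 ± 0.0253 against 40.3 ± 3.17 CPM).

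Developmental signalling genes were more often lower in DRG neurons. Wnt genes had 27 lower and 8 higher of 44 (median −2.17). The secreted antagonist Sfrp1 was at 601, 390.3 and 465 CPM in Astrocytes replicates 1 to 3 and 28.2, 16.0 and 19.1 CPM in DRG replicates 1 to 3 (log2 fold change −4.53, SE 0.29, adjusted p = 3.53e-06), the ligand Wnt7a at 0.780 ± 0.131 against 68.5 ± 20.8 CPM and the receptor Fzd3 at 44.0 ± 5.36 against 326 ± 57.1 CPM. DRG libraries were lower for all of these, and the enhancer of Wnt signalling Rspo2 was higher (61.9 ± 28.1 against 0.198 ± 0.0601 CPM). TGF-beta and BMP genes had 25 lower and 8 higher of 46. The BMP targets Id1 (40.5 ± 6.02 against 182 ± 48.6 CPM), Id2 (39.3 ± 18.3 against 342 ± 84.7 CPM), Id3 (11.9 ± 5.32 against 490.3 ± 75.5 CPM) and Id4 (29.3 ± 23.3 against 308 ± 186 CPM) were all lower, as was the ligand Bmp6 (0.638 ± 0.261 against 408 ± 128 CPM). The follistatin-like Fstl1 was higher (4445 ± 1429 against 1042 ± 525 CPM). Notch genes had 11 lower and 5 higher of 25. All 4 receptors were among the lower ones, with Notch1 at 7.01 ± 2.69 against 248 ± 49.5 CPM and Notch2 at 4.62 ± 0.898 against 298 ± 18.6 CPM, and Numbl, of the Numb family that restrains Notch, was higher (201 ± 19.1 against 54.6 ± 14.2 CPM). The targets Hes1 (14.4 ± 3.01 against 17.9 ± 3.77 CPM, adjusted p = 0.405) and Hes5 (0.274 ± 0.173 against 0.720 ± 0.385 CPM, adjusted p = 0.194) did not pass.

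Hedgehog genes had 10 lower and 2 higher of 15, 1 higher without any 1 astrocyte library or DRG replicate 1 or 3. The transducer Smo was at 3.89 ± 1.83 against 235 ± 1.33 CPM and the coreceptors Cdon and Gas1 at 7.35 ± 0.504 against 251 ± 78.8 CPM and 0.605 ± 0.119 against 176 ± 40.8 CPM. Disp2, of the family that releases the ligand, was higher (938 ± 136 against 6.01 ± 0.525 CPM). FGF, EGF and PDGF genes had 12 higher and 17 lower of 38 (31.6% and 44.7%, against 27.4% and 32.8% of all genes tested). Nrg1, the axonal signal to Schwann cells, was higher (96.3 ± 5.67 against 40.1 ± 2.70 CPM), and the receptors Egfr (1.52 ± 0.766 against 44.3 ± 14.8 CPM) and Fgfr2 (0.305 ± 0.0705 against 45.6 ± 12.5 CPM) were lower. Of the retinoid genes 8 of 13 were lower and 3 higher. Retinaldehyde dehydrogenase 1, Aldh1a1, which makes retinoic acid, was lower (2.94 ± 1.02 against 459 ± 436 CPM), as was the retinol dehydrogenase Rdh10 (4.36 ± 0.489 against 141 ± 42.6 CPM).

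Cell division genes had no higher member in DRG neurons, which are postmitotic. Of 30 mitotic genes 28 were lower (median −5.63, or −5.22 with the 3 members that had a group at 0 counts placed at their bounds), 30 without Astrocytes replicate 1. Their summed level was 352, 3555 and 2274 CPM in Astrocytes replicates 1 to 3 and 67.9, 53.8 and 49.2 CPM in DRG replicates 1 to 3, so Astrocytes replicate 1 was the lowest astrocyte culture and still above the neurons. Top2a, which untangles chromosomes, was at 65.8, 677 and 468 CPM in Astrocytes replicates 1 to 3 and 2.64, 2.82 and 1.78 CPM in DRG replicates 1 to 3, and Mki67, the proliferation antigen, at 36.4, 586 and 353 CPM in Astrocytes replicates 1 to 3 and 3.15, 1.41 and 1.06 CPM in DRG replicates 1 to 3. The fitted fold of each moved by over 1.5 times when 1 library was left out (−7.89 to −6.79 for Top2a and −8.03 to −6.72 for Mki67, log2). DNA replication had 29 of 32 lower (median −2.49), 31 of 32 without that library. Rrm1, a subunit of the enzyme that makes deoxynucleotides, was at 131, 331 and 303 CPM in Astrocytes replicates 1 to 3 and 29.1, 25.2 and 18.8 CPM in DRG replicates 1 to 3 (log2 fold change −3.39, SE 0.37, adjusted p = 6.13e-05), and Pcna, the clamp of DNA polymerase, at 52.2 ± 6.60 against 246 ± 83.6 CPM. Every astrocyte library was above every DRG library for both.

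Promoters of these lists hold known cell cycle elements. The CHR element TTTGAA was in 20 of 27 mitotic windows (74.1%), against 12% for tested genes and 17.9% of all windows. The E2F site TTCCCGC was in 16 of 34 replication windows (47.1%), against 7.77% and 4.6%. Windows are shown for both leading mitotic genes and for the leading replication gene: Top2a (chr11:99024140-99024439, minus strand; matches 179 and 23 bases before the start, the second as TTCAAA on the other strand), Mki67 (chr7:135716330-135716629, minus strand; matches 116 and 98 bases before) and Rrm1 (chr7:102441445-102441744, plus strand; match 67 bases before).
Top2a: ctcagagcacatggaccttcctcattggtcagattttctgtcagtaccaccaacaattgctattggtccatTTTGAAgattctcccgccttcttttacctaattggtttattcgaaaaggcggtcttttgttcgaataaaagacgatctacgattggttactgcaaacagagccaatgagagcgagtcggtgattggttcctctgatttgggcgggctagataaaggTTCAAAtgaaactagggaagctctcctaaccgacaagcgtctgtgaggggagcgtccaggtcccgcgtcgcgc
Mki67: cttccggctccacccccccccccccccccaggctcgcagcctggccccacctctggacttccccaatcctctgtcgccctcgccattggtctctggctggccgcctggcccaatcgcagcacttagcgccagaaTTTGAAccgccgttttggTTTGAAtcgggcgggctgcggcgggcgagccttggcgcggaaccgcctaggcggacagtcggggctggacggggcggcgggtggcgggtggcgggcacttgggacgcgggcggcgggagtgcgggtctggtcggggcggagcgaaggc
Rrm1: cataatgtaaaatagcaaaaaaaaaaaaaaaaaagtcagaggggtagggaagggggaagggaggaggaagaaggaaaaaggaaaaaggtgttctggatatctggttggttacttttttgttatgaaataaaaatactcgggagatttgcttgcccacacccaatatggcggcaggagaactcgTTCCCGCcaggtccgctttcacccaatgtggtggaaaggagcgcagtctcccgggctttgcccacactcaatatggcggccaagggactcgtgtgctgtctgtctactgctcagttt
Capitals mark the CHR element in Top2a and Mki67 and the E2F site in Rrm1.

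Regulators of the cell cycle were less uniform, with 14 lower and 7 higher of 29. Cyclins Ccnd1 (51.8 ± 23.5 against 683 ± 242 CPM) and Ccnd2 (69.9 ± 35.0 against 961 ± 209 CPM) were lower. Higher were Cdk5 (196 ± 22.5 against 49.7 ± 2.75 CPM) and its activator Cdk5r1 (92.4 ± 3.94 against 5.07 ± 1.32 CPM), which act in postmitotic neurons. Genes of apoptosis had 15 lower and 8 higher of 34 (44.1% and 23.5%, against 32.8% and 27.4% of all genes tested). Among survival genes of the BCL2 family Mcl1 was lower (115 ± 14.3 against 378 ± 82.7 CPM) and Bcl2l2 higher (232 ± 34.2 against 114 ± 6.78 CPM).

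Position and lineage factors separated the groups. All 31 tested of 39 Hox genes, which mark position along the trunk, were higher in DRG neurons. Hoxb9 was at 0.0376, 0.0237 and 0.0829 CPM in Astrocytes replicates 1 to 3 and 42.0, 70.5 and 64.0 CPM in DRG replicates 1 to 3, with astrocytes close to 0. Forebrain and progenitor factors had 30 of 34 lower and 0 higher (1 without DRG replicate 1), with Sox2 at 1.44 ± 0.739 against 335 ± 54.3 CPM. Sensory and pan-neuronal transcription factors had 20 of 26 higher, led by Pou4f1 (347 ± 16.8 against 0.2001 ± 0.260 CPM) and Isl1 (196 ± 89.4 against 0.129 ± 0.178 CPM), which specify sensory neurons. Etv4 (8.61 ± 1.02 against 28.3 ± 16.7 CPM) and Eya1 (0 ± 0 against 2.70 ± 0.702 CPM) were lower. No median is given for these lists, since 1 group was near 0 for most members.

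RNA-binding proteins had calls in both directions. Splicing and RNA-binding regulators had 19 higher and 15 lower of 40. Ptbp2, the neuronal form of the polypyrimidine tract-binding protein, was at 27.1, 40.3 and 39.9 CPM in Astrocytes replicates 1 to 3 and 217, 163 and 179.7 CPM in DRG replicates 1 to 3 (log2 fold change 2.38, SE 0.26, adjusted p = 5.95e-05), and Ptbp1, the form of other cells, at 0.441 ± 0.106 against 12.4 ± 0.943 CPM, with no overlap for either. Ptbp1 has 3 accessions, so its count covers isoform-specific reads. The Hu proteins did likewise: Elavl3 was at 303 ± 31.4 against 5.55 ± 1.63 CPM and the ubiquitous Elavl1 at 48.8 ± 0.773 against 102 ± 9.41 CPM. Quaking, Qk, and Musashi 2, Msi2, regulators of glia and progenitors, were lower (11.1 ± 5.28 against 184 ± 21.2 CPM and 40.0 ± 4.04 against 268 ± 16.3 CPM). Rest, which represses neuronal genes outside neurons, was lower (2.34 ± 0.298 against 40.0 ± 5.52 CPM).

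Rab GTPases, the address labels of membrane traffic, had 24 higher and 15 lower of 56, with Rab6b, a Golgi form of neurons, at 2284 ± 54.4 against 22.8 ± 4.27 CPM and Rab31 at 44.6 ± 16.0 against 1330.1 ± 199.8 CPM. Solute carriers had 91 higher and 86 lower of 266 (34.2% and 32.3%, against 27.4% and 32.8% of all genes tested), so only the lower share was close. Zinc finger genes named Zfp had fewer calls than all genes, with 36 higher (63 without OPC replicate 3) and 67 lower of 347. Noncoding transcripts had 171 higher and 297 lower of 805 tested (21.2% and 36.9%, against 27.4% and 32.8% of all genes tested). Neat1, the scaffold of paraspeckles, was lower (627, 976 and 537 CPM in Astrocytes replicates 1 to 3 and 21.7, 12.8 and 40.4 CPM in DRG replicates 1 to 3; log2 fold change −4.84, SE 0.58, adjusted p = 0.000115) with no overlap, and Norad, which binds Pumilio proteins, higher (1478 ± 100.95 against 538 ± 104 CPM). The imprinted Rian (1041 ± 448 against 85 ± 31.0 CPM) and Meg3 (237 ± 44.3 against 44.9 ± 18.3 CPM), which lie in 1 cluster, were both higher.

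Genes that span more of the genome were more often higher in DRG neurons. Of the tested genes 99.3% had a span in the annotation. Split by span into 5 bins of equal size, the bin of shortest spans had 25% higher and 31.9% lower genes, and in the bin of longest spans, from 72.8 kb, 33.7% were higher and 33.2% lower. Of 482 genes over 300 kb 218 (45.2%) were higher and 141 (29.3%) lower. With the trend on transcript length removed the shortest and longest bins had 28.5% and 36.2% higher.

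**Figure D5:**
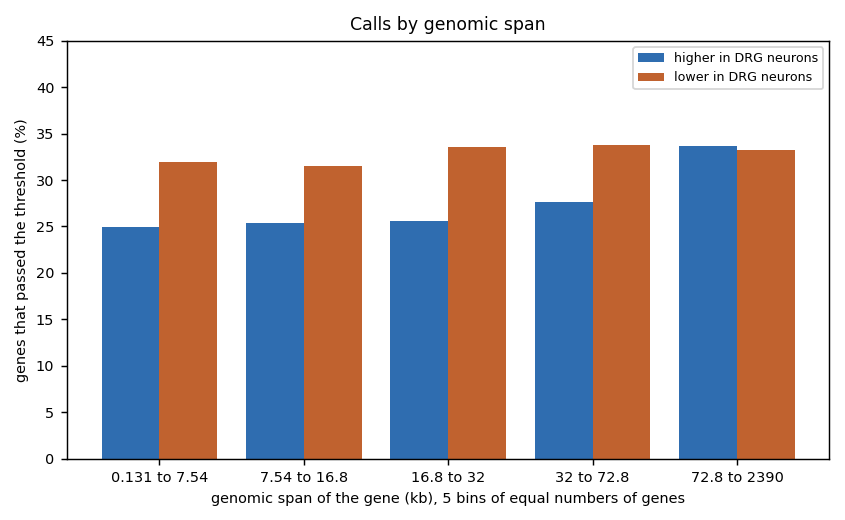
Bars give the percentage of tested genes higher (first of each pair) and lower in DRG neurons in 5 bins of genomic span (kb) with equal numbers of genes. The share of higher genes is 25% in the bin of shortest spans and 33.7% in the longest, while the share of lower genes stays between 31.5% and 33.8%.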

How the data were processed

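RNA was extracted with TRIzol and made into libraries with the Illumina TruSeq stranded mRNA kit, per the labels' protocols. Alignment to mm10 used TopHat2 and counting used HTSeq, per the submitters' processing notes. Not given in the sources used here are their versions, the RefSeq annotation release, how HTSeq treated overlaps, and its strand option. The authors deposited raw read counts per RefSeq transcript accession, with no normalization, and these counts were summed over the accessions of a gene. Totals of unassigned reads (41.0 to 46.9% of reads in the 6 libraries) were dropped; they include reads marked ambiguous, which in counting per transcript are those that fit several isoforms or genes, so genes with several accessions keep isoform-specific reads only. Assigned counts ran from 30710093 to 53594210 per library.

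Tests used edgeR 4.0.16 in R 4.3.3 (TMM factors, filterByExpr with a minimum count of 10, quasi-likelihood F-test, Benjamini-Hochberg over all 14848 genes, threshold 0.05), on all 9 libraries in 1 model with 6 residual degrees of freedom. CPM use TMM-scaled library sizes. The fit gives no SE; each one printed is |log2 fold change|/√F, calculated back. A fold within 2-fold is a limma 3.58.1 voom interval inside ±1 on the log2 scale. DESeq2 1.42.0 was an alternative. Coordinates and promoters are from RefSeq, GRCm38.p6, the assembly of mm10.

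The gene lists and the comparison were chosen with earlier results of these data known. Named by rule were the 10 genes with the largest CPM difference in each direction, the 2 most abundant called members of a list in each direction with the largest fold among those of at least 10 CPM, members of paralog sets, and the 10 genes where Astrocytes replicate 1 departed most (1 of them has no gene name). Some of the genes this rule names are not reported here. The following were named outside that rule, chosen after their values were seen: Atf3, Atf4, Atp6v0e2, Cdk5r1, Chga, Chgb, Cpt1a, Ddit3, Egfr, Fgfr2, Hes1, Hes5, Hspa5, Id1, Id2, Id4, Ina, Itpr2, Lmnb1, Lmnb2, Meg3, Mt1, Mt2, Mt3, Nes, Notch1, Nrg1, Pdia3, Pdia4, Pdia6, Psmb5, Psmb9, Rela, Rest, Ryr2, Ryr3, S100b, Scd2, Sod3, Sox11, Trib3 and Trim67.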

Additional observations from a re-analysis of the deposited data

How the results depend on the processing

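Over 10 alternatives and 9 fits that each left out 1 library, 4747 of 4784 fitted values of the 253 named genes kept direction and call, 19 lost a call (5 genes: Hpgd, Itgbl1, Mfap4, Psme1 and Scd2), 18 gained one and 0 reversed. Leaving out 1 library gave 3561 to 4617 higher genes, 4197 to 5001 lower genes and 1912 to 2791 within 2-fold. The other alternatives gave 3236 to 4627 higher and 3839 to 5736 lower. With only the 6 libraries compared, and so no OPC library, 14378 genes were tested, 4236 higher and 4540 lower. Higher genes were 45.6% of all calls, and between 37.1% (library size alone: 3376 higher and 5736 lower) and 50% (length trend removed: 4542 and 4543) over the alternatives. An interval within 1.5-fold in place of 2-fold held for 578 genes, since it is narrower. Of 4028 counts over lists and settings, 3856 stayed within 1.5 times. Many of the others came with genes of 1 accession only, where fewer members are tested: axonal motors had 11 higher instead of 25, and adhesion molecules 23 instead of 35. The alternative without Astrocytes replicate 1 and OPC replicate 3 together was chosen after seeing the data. With a replicate block, 4033 genes were higher and 4714 lower, and 11 sterol genes were higher instead of 7. Deviations of same-numbered astrocyte and DRG libraries correlated at 0.021 to 0.046, against −0.0425 to 0.0226 for those with different numbers. These few correlations cannot show whether libraries shared a litter or day. The labels state no pairing, so none was used. Depth limits rare transcripts: of 24170 genes, 14848 had enough reads to be tested.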

Other observations

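Intermediate filament genes had 7 higher and 5 lower of 14 tested. Beyond the neurofilaments and Gfap, internexin Ina, a neuronal filament, was higher in DRG neurons (27.4 ± 24.0 against 0.208 ± 0.148 CPM). Nestin, Nes, the filament of progenitors and reactive astrocytes, was lower (29.8 ± 21.5 against 1723 ± 565 CPM), and so were both B-type lamins of the nuclear envelope, Lmnb1 (8.45 ± 1.77 against 112 ± 79.2 CPM) and Lmnb2 (17.1 ± 1.43 against 33.0 ± 7.67 CPM). Trim genes, mostly ubiquitin ligases, had 11 higher and 14 lower of 41 tested, near the shares of all genes. Trim67 (198 ± 33.8 against 17.5 ± 12 CPM) was higher, and Trim28, a corepressor of zinc finger proteins that silences retroelements, was lower (123 ± 14.5 against 228 ± 28.6 CPM).

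The most abundant genes whose 95% interval lay within 2-fold by limma voom were Scd2, a fatty acid desaturase (3363 ± 299 against 5163 ± 714 CPM, log2 interval −0.93 to −0.29), and the actin gene Actg1 (4469 ± 408 against 3412 ± 1095 CPM, −0.09 to 0.99). Scd2 passed the test as lower in DRG neurons by less than 2-fold (adjusted p = 0.0216), a call that ended without Astrocytes replicate 3 or DRG replicate 3 and with the length trend removed, so a call and a fold within 2-fold can go together. These genes were chosen after their values were seen.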
